A study of Mus musculus with 10 samples.

Results

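The BTG and TOB genes encode a family of antiproliferative proteins, and 5 of them (Btg1, Btg2, Btg3, Tob1 and Tob2) were followed here together with Cnot7 and Cnot8, which encode the deadenylases that these proteins bind. The 7 genes were chosen by symbol and found through their Ensembl identifiers among the 52550 genes of the count table. Summed over the 10 libraries, all 7 reached 10 counts, as did 20269 genes of the table. The fourth BTG gene of the mouse table, Btg4, had 38 counts in all, from 0 to 10 in a library, and was not followed further.

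The libraries hold total RNA, depleted of ribosomal RNA, from C57BL/6 mouse bone marrow hematopoietic stem and progenitor cells (HSPCs) transformed with a retrovirus that expresses the leukemia fusion protein MLL-AF9. Transduction with the repressor tetR-KRAB is described for MLL-AF9-i139 cells, and the steps that made MLL-AF9-ieGFP cells are not spelled out in the sources used here. The cells grew with GM-CSF, SCF and the interleukins IL-3 and IL-6. In MLL-AF9-i139 cells, doxycycline (DOX) switches on the microRNA miR-139, and in MLL-AF9-ieGFP cells it switches on eGFP. The study asked which genes change when miR-139 is induced. There were 3 MLL-AF9-i139 clones, each picked as a colony and sequenced once without and once with 5 µg/mL DOX. DOX was given for 48 h to clones 1 and 2 and for 72 h to clone 3, and no time is given for their untreated cultures, so the longer treatment and clone 3 cannot be told apart. MLL-AF9-ieGFP was 1 clone, sequenced without and with 5 µg/mL DOX at 48 h and at 72 h. Its 2 libraries of a condition thus come from the same clone at different times, and the construct cannot be told apart from the clone.

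BTG and TOB proteins share an amino-terminal domain that binds CNOT7 and CNOT8, which are among the catalytic subunits of the CCR4-NOT complex. This complex shortens the poly(A) tails of messenger RNAs, the step that opens most mRNA decay. Btg1 and Btg2 are known as restraints on the growth of lymphoid and myeloid cells, and Btg2 is a known target of the tumor suppressor p53 and an immediate early gene. Tob1 and Tob2 have a longer carboxy-terminal part that binds the poly(A) binding protein.

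The libraries held from 35133308 to 47089725 counts. Levels are given as CPM, counts relative to the library total after TMM scaling, which aligns the libraries on the bulk of their genes. The hairpin gene Mir139 had 0 counts in all 10 libraries, and it lies entirely within the gene bodies of Pde2a and Gm45837, so these counts hold no check of the induction itself. Of 680 protein-coding genes that lie inside another gene without sharing an exon base, 97.9% had 0 counts, against 24.9% of 11686 protein-coding genes clear of all others. This bears on Cnot7, with 93.5% of its body inside Zdhhc2 and Vps37a, and on Btg3, with 60.9% of its body inside Cxadr and Gm49590. How reads in such shared stretches were counted is not given in the sources used here. The other 5 genes lie clear of their neighbours, apart from 5.37% of the body of Tob2.

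The cells were labelled as transformed HSPCs of the bone marrow. Of 10 myeloid progenitor markers 9 had at least 10 counts, led by Elane with a mean of 1478 CPM. Itgam, the gene of CD11b, had 0 to 3 counts in a library, and 99.9% of its body lies inside Gm49368. Cd34 had 0 to 20 counts in a library. The summed CPM of the T cell, B cell, erythroid, megakaryocyte and stroma markers stayed between 0 and 2.98 in every library, and Ms4a1, Hbb-bs and Col3a1 had no count at all.

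Both mature strands of miR-139 are shown because they decide which transcripts can pair with the induced RNA. The capitals mark the seed, bases 2 to 8, and the sequences are those of RefSeq for GRCm38.p6, on the plus strand of chromosome 7.
miR-139-5p: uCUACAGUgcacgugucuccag
miR-139-3p: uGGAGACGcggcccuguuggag

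A 7-base match to a seed (bases 2 to 8, or bases 2 to 7 followed by an A) was looked for in the longest annotated 3′ UTR of each member. For miR-139-5p, such a match was present in Btg1, Btg3 and Tob2, which is 3 of 7 members. Among 13989 annotated 3′ UTRs, 21.7% held one, a share not matched for length. The 3′ UTRs of Btg1, Btg3 and Tob2 were the longest of the 7, with 4166, 2554 and 2457 bases. For miR-139-3p a match was present in Cnot7 alone of the 7, beside 15.9% of the 3′ UTRs. Btg2, Tob1 and Cnot8 held neither. The 4 sites are shown with 9 bases on each side, the match in capitals, at the GRCm38 position of the match. A match of letters does not show that the site is used.
Btg1 (chr10:96621697-96621703, plus strand): ttgatgtggACTGTAGgaaaattac
Btg3 (chr16:78333457-78333463, minus strand): gccattcaaACTGTAGtggaaggga
Tob2 (chr15:81849903-81849909, minus strand): gtcttccctCTGTAGAtgggtcctg
Cnot7 (chr8:40492702-40492708, minus strand): tattagcaaGTCTCCAactgttagc

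The promoters of Btg2, the member with the widest range over the libraries, and of its nearest relative Btg1 are shown from 250 bases before to 50 bases after the RefSeq start, in GRCm38.p6. Capitals mark the cyclic AMP response element TGACGTCA, the FOXO core TGTTTAC, the CCAAT box and the TATA box core TATAAA, on either strand. None of these matches overlap.
Btg2 promoter (chr1:134079106-134079405, minus strand): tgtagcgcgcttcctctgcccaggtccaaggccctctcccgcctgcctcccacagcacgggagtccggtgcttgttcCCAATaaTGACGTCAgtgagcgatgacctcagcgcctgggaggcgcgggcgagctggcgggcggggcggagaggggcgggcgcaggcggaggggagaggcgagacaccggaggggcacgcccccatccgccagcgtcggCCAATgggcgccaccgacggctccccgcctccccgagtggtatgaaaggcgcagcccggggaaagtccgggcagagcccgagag
Btg1 promoter (chr10:96616751-96617050, plus strand): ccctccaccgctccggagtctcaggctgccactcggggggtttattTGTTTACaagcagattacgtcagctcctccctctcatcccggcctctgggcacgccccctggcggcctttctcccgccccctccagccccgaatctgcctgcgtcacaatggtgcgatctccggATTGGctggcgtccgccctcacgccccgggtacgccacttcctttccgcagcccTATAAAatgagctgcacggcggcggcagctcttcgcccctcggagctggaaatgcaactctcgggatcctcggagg
Btg2 held the full TGACGTCA once, starting 166 bases before the start, and 1.79% of 32851 promoters of this length held it. It also held CCAAT 2 times and no TGTTTAC or TATAAA. Btg1 held TGTTTAC once, 204 bases before the start, beside 3.65% of all promoters, as well as 1 CCAAT and 1 TATAAA. Neither window held a match to the p53 half-site motif searched, which 8.36% of all promoters held. A p53 site that departs from that motif, or lies outside these windows, would not be seen. Tob1 held CCAAT and TATAAA and Tob2 neither, and no promoter of Cnot7 was in the sequence table.

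Btg2 had the clearest difference of the 7 genes. The study itself reported Btg2 as upregulated with DOX from these MLL-AF9-i139 libraries, so its direction here is not independent evidence. It is encoded on chromosome 1, minus strand, between positions 134075170 and 134079120 of GRCm38. Without DOX, MLL-AF9-i139 clones 1, 2 and 3 had 6.97, 7.20 and 4.41 CPM (340, 316 and 174 counts). With DOX they had 24.4, 24.2 and 6.83 CPM (1168, 950 and 269 counts). Clones 1 and 2 thus stood 3.50-fold and 3.35-fold above their untreated cultures, and clone 3 stood 1.55-fold above its own. Clone 3 with DOX remained below clones 1 and 2 without DOX, so the groups overlap. The MLL-AF9-ieGFP clone had 7.83 CPM at 48 h and 5.83 CPM at 72 h without DOX. With DOX it had 7.73 and 7.29 CPM. These 4 libraries lay between 5.83 and 7.83 CPM, beside 4.41 to 7.20 CPM in the untreated MLL-AF9-i139 clones.

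**Figure D1:**
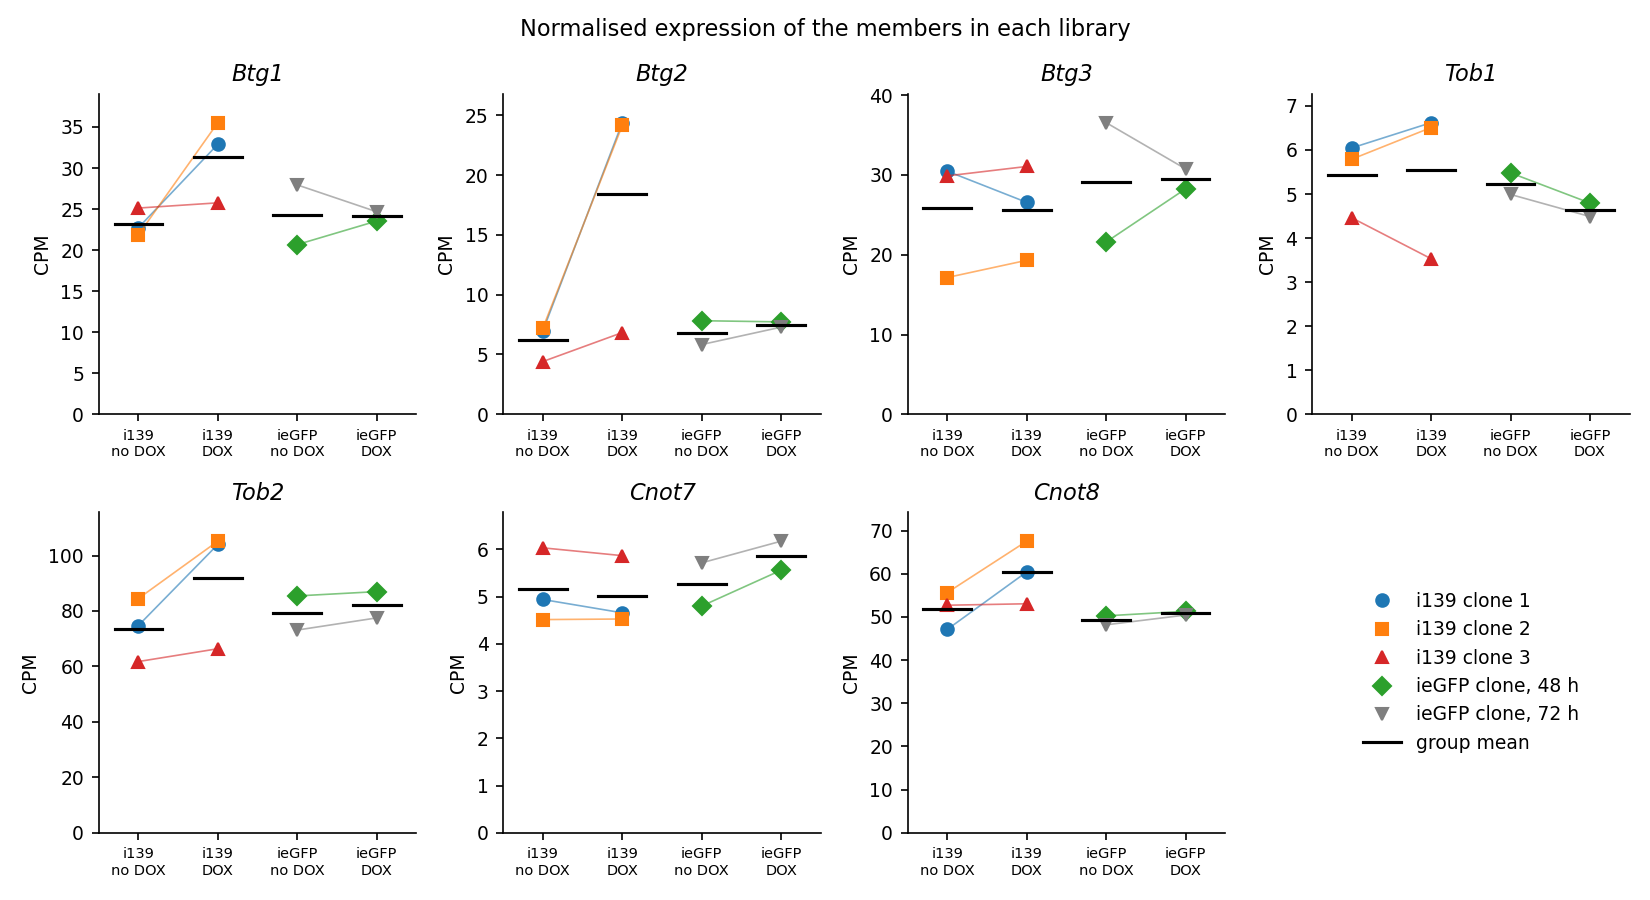
Normalised expression in CPM (linear axis from 0) of the 7 genes in each of the 10 libraries, by construct and DOX. Each symbol is 1 library, lines join the 2 libraries of a clone or time point and the black bar is the group mean. Btg2 reached 24.4 and 24.2 CPM in clones 1 and 2 with DOX and stayed at or below 7.83 CPM in the other 8 libraries.

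The mean of Btg2 was 18.5 ± 10.1 CPM with DOX and 6.19 ± 1.55 CPM without (SD, n = 3). Compared as separate groups, the log2 fold change was 1.59 (standard error 0.45, 95% interval 0.55 to 2.63), with an unadjusted p of 0.0075 and an adjusted p of 0.128 in the quasi-likelihood test of edgeR, adjusted over 19223 genes by the Benjamini-Hochberg method. With the clone as a block, which compares each clone with itself, Btg2 rose by 1.44 (95% interval 0.89 to 2.00), and its adjusted p was 0.0245 by the same test. The p-value fell below 0.05 as well with DESeq2 (adjusted p = 0.00365), in the edgeR fit of all 10 libraries (0.0443) and without clone 3 (0.0003, log2 fold change 1.80). Over 9 alternatives the adjusted p ran from 0.0003 to 0.742 and the log2 fold change from 1.42 to 1.80, higher with DOX in 3 of 3 clones. The highest values came from leaving out clone 1 (adjusted p = 0.679) or clone 2 (0.742), which keeps clone 3.

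Btg2 was the only member to pass the threshold with the clone block. The test without a block called 0 of the 7 members, while 2 (Btg1 and Btg2) had an unadjusted p under 0.05, and it called 0.0624% of all genes. Called with the clone block was 1 of 7, beside 12.4% of all genes. DESeq2 called 1 of 7, beside 8.1% of all genes. In the fit of 10 libraries 1 of 7 was called, beside 6.09%, and without clone 3 it was 3 of 7, beside 21.7%. In each case that share of the members rests on 1 to 3 genes. Btg2 ranked at 96.9% of the 19223 genes by the size of its log2 fold change without the block.

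In MLL-AF9-ieGFP the log2 fold change of Btg2 was 0.13 (95% interval -0.93 to 1.20, adjusted p = 1.00, edgeR). The difference between the constructs, tested as an interaction in 1 edgeR fit of all 10 libraries, was 1.44 (95% interval 0.06 to 2.81), with an unadjusted p of 0.0417 and an adjusted p of 0.538. It called 0 of the 7 members and 0.00493% of all genes. With only the DOX cultures of 48 h and their untreated partners, which leaves MLL-AF9-i139 clones 1 and 2, the difference was 1.79 (adjusted p = 0.0159), the only member of 7 called, beside 2.69% of all genes. There each MLL-AF9-ieGFP condition held 1 library, so the spread came from the MLL-AF9-i139 clones alone and was assumed to hold for the control clone. Without clone 3 but with both times of MLL-AF9-ieGFP it was 1.67 (adjusted p = 0.0013), 1 of 7 again, beside 10.2% of all genes. Blocked by clone, it was 1.29 (adjusted p = 0.103), so there the replicate block did not bring the difference under the threshold.

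Myeloid markers also moved with DOX, and the marker lists differed in how they ran over the clones. The summed level of the 10 myeloid progenitor markers was 3116, 3859 and 4747 CPM in the untreated MLL-AF9-i139 clones 1, 2 and 3. With DOX it was 4656, 4864 and 7044 CPM. The highest progenitor sum was thus in clone 3 with DOX. The MLL-AF9-ieGFP clone was likewise higher with DOX, with 3658 against 3314 CPM at 48 h and 5261 against 4118 CPM at 72 h, and its treated 72 h library exceeded MLL-AF9-i139 clones 1 and 2 with DOX (4656 and 4864 CPM). The sum of 8 mature neutrophil markers was 222, 163 and 129 CPM in the untreated MLL-AF9-i139 clones 1, 2 and 3. With DOX it was 359, 336 and 191 CPM, so this sum was lowest in clone 3 in both conditions. With the clone block, 5 of 9 tested progenitor markers and 2 of 7 tested neutrophil markers rose, among them Ngp, the most abundant neutrophil marker, with 59.2 CPM without and 149 CPM with DOX on average. Of 5 monocyte and macrophage markers, Csf1r rose and Ccr2 fell. The sum of these 5, led by Ly6c2, was lower with DOX in clone 1 (276 against 352 CPM) and clone 2 (307 against 440 CPM) and not in clone 3 (426 against 417 CPM). In MLL-AF9-ieGFP the neutrophil sum ran from 294 to 376 CPM without and from 282 to 397 CPM with DOX. The part of these shifts in the level of Btg2 was not tested. In bulk libraries a change in the mix of cells and a change in RNA per cell cannot be told apart.

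Clone 3 stood apart from the other MLL-AF9-i139 clones over all genes as well. The log2 difference between the DOX and the untreated library had an SD of 0.52 over 19223 genes in clone 3, against 0.70 in clone 1 and 0.74 in clone 2, with medians between -0.02 and 0.01.

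Btg1 (chromosome 10, plus strand, 96617006 to 96622809) encodes the closest relative of BTG2. Its CPM were 22.7, 21.9 and 25.1 in clones 1, 2 and 3 without DOX. With DOX they were 32.9, 35.5 and 25.8. Every DOX-treated library lay above every untreated one, although clone 3 with DOX exceeded clone 3 without by only 1.03-fold. Btg1 was the only one of the 7 members separated in this way, and 12% of all genes tested were. The means were 31.4 ± 5.05 and 23.2 ± 1.69 CPM (SD, n = 3), a log2 fold change of 0.45 (95% interval 0.11 to 0.79) with an adjusted p of 0.159 in edgeR without and 0.0824 with the clone block. Without clone 3 it was 0.64 (adjusted p = 0.0043). In MLL-AF9-ieGFP, Btg1 had 20.7 and 27.9 CPM without DOX and 23.5 and 24.7 CPM with DOX, at 48 h and 72 h. The untreated libraries lay on either side of the treated ones. The interaction was 0.44 (95% interval -0.07 to 0.96, adjusted p = 0.586, edgeR). The pseudogenes Btg1-ps1 and Btg1-ps2 had no counts in any library. How reads shared with these near copies were counted is not given in the sources used here.

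Btg3 (chromosome 16, minus strand, 78332637 to 78377192) encodes a more distant member of the BTG group. It had 30.5, 17.1 and 29.9 CPM in the untreated clones 1, 2 and 3. With DOX it had 26.6, 19.3 and 31.1 CPM. The clones differed more than the treatments did, with clone 2 lowest in both conditions, and the groups overlap. The log2 fold change was 0.00068 (95% interval -0.58 to 0.58, adjusted p = 0.999, edgeR), and with the clone block the interval narrowed to -0.23 to 0.27. In MLL-AF9-ieGFP without DOX it was 21.6 CPM at 48 h and 36.6 CPM at 72 h. With DOX it was 28.3 and 30.8 CPM, again between the untreated values.

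Tob1 was among the scarcer members by counts, with 139 to 317 in a library. It sits on chromosome 11, plus strand, at 94211454 to 94215495. Clones 1, 2 and 3 had 6.05, 5.79 and 4.46 CPM without DOX. They had 6.62, 6.51 and 3.53 CPM with DOX. Clone 3 held the lowest value of each group, and the groups overlap. The log2 fold change was 0.05 (95% interval -0.59 to 0.68, adjusted p = 0.948, edgeR). The MLL-AF9-ieGFP libraries had 5.48 and 4.99 CPM without and 4.79 and 4.49 CPM with DOX. The log2 fold change there was -0.17 (95% interval -0.83 to 0.48, adjusted p = 1.00, edgeR).

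Tob2 (chromosome 15, minus strand, 81848272 to 81858796) gave the most counts of the 7 genes, 2436 to 4979 in a library. Without DOX clones 1, 2 and 3 had 74.7, 84.5 and 61.7 CPM. With DOX they had 104, 105 and 66.4 CPM. Clone 3 was lowest in both groups and with DOX stayed below the untreated clones 1 and 2. The log2 fold change was 0.33 (95% interval -0.12 to 0.78), with an adjusted p of 0.370 in edgeR without and 0.0777 with the clone block. Without clone 3 it was 0.41 (adjusted p = 0.0216). In MLL-AF9-ieGFP the values were 85.4 and 73.1 CPM without DOX and 87.0 and 77.5 CPM with DOX. There the time points differed more than the treatments.

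**Figure D2:**
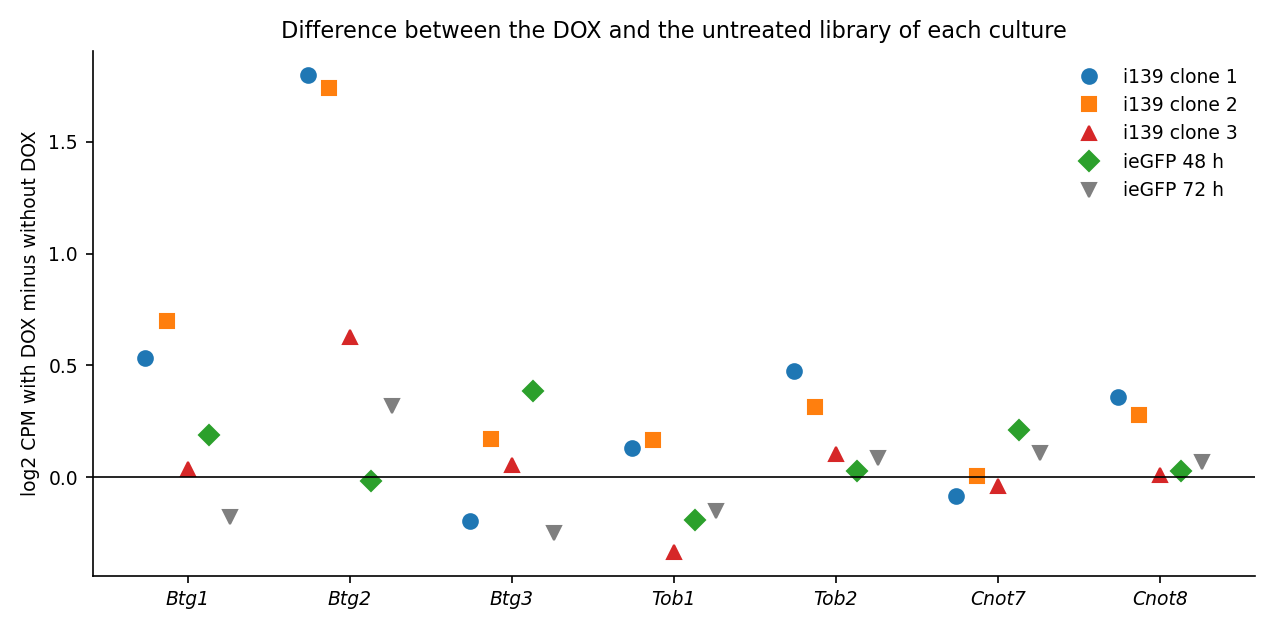
Log2 CPM with DOX minus log2 CPM without DOX (prior count of 2) for the 7 genes, 1 symbol for each MLL-AF9-i139 clone and each time point of the MLL-AF9-ieGFP clone, with a line at 0. Btg2 stands at 1.80 and 1.74 in clones 1 and 2 and at 0.63 in clone 3. For Btg1, Btg2, Btg3, Tob2 and Cnot8 clone 3 lies closest to 0 of the 3 clones.

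The deadenylases came next. Cnot8 (chromosome 11, plus strand, 58104153 to 58118594) had 47.1, 55.6 and 52.7 CPM in clones 1, 2 and 3 without DOX. It had 60.4, 67.5 and 53.04 CPM with DOX. Clones 1 and 2 were higher with DOX, clone 3 by 1.01-fold, and the groups overlap at clone 3. The log2 fold change was 0.23 (95% interval -0.05 to 0.52), with an adjusted p of 0.327 in edgeR without and 0.165 with the clone block. MLL-AF9-ieGFP stayed between 48.2 and 51.3 CPM in all 4 libraries.

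Cnot7 (chromosome 8, minus strand, 40492540 to 40515847) encodes the other deadenylase of the pair. Its CPM were 4.94, 4.51 and 6.03 in the untreated clones 1, 2 and 3. They were 4.66, 4.53 and 5.87 with DOX. No clone moved by more than 1.06-fold, and the groups overlap. The log2 fold change was -0.03 (95% interval -0.50 to 0.44, adjusted p = 0.957, edgeR). With the clone block the interval was -0.35 to 0.30. Cnot7 had 178 to 241 counts in a library and 78.5% of its exon length inside other genes. A change of any size within the interval of the clone block remains possible. In MLL-AF9-ieGFP it had 4.80 and 5.72 CPM without and 5.56 and 6.17 CPM with DOX, at 48 h and 72 h.

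In MLL-AF9-ieGFP, 0 of the 7 members and 0% of all genes were called by edgeR. No member had an unadjusted p under 0.05, and DESeq2 called 0 members. With 2 libraries of 1 clone in a condition, this does not show that DOX alone leaves the members as they were. The 95% intervals allowed changes from -0.93 to 1.20 on the log2 scale for Btg2 and from -0.24 to 0.34 for Cnot8.

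**Figure D3:**
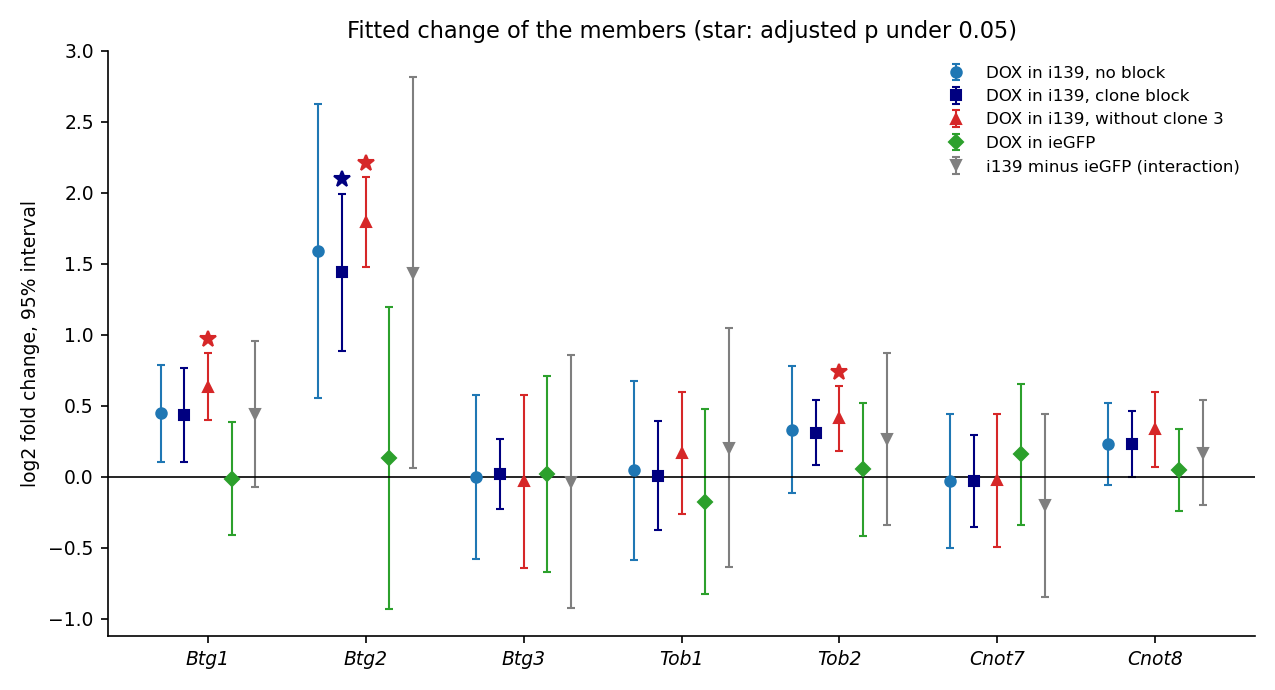
Fitted log2 fold change of each gene with its 95% interval (edgeR), for DOX in MLL-AF9-i139 without a block, with the clone block and without clone 3, for DOX in MLL-AF9-ieGFP, and for the difference between the constructs. A star marks an adjusted p under 0.05. Stars stand over Btg2 with the clone block and without clone 3, and over Btg1 and Tob2 without clone 3.

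Levels can be compared between genes only per length, and the length that was counted is open, since reads inside introns may have been included. Per kb of exon, the means over 10 libraries were 20.4 for Cnot8, 12.3 for Tob2, 6.77 for Btg3, 4.94 for Btg1, 3.74 for Btg2, 2.30 for Tob1 and 0.907 CPM for Cnot7. In that order Cnot8 and Tob2, Tob2 and Btg3, and Tob1 and Cnot7 did not overlap in range over the libraries. Btg3 and Btg1, Btg1 and Btg2, and Btg2 and Tob1 did overlap. Per kb of gene body clear of other genes, the order was Tob2 (8.23), Btg1 (4.49), Cnot8 (3.72), Cnot7 (3.49), Btg2 (2.60), Btg3 (1.56) and Tob1 (1.30 CPM). Per kb of exon clear of other genes, Btg3 (18.9 CPM) stood above Tob2 (13.4), and Cnot7 was at 4.22. The place of every member thus depended on the length used. Tob1 had the lowest mean of the 5 BTG and TOB genes over all 10 libraries, but in the untreated MLL-AF9-i139 clones Btg2 (2.26 ± 0.565) and Tob1 (2.37 ± 0.372 CPM per kb of exon, SD, n = 3) differed by less than their spread.

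Btg2 also varied most, with a coefficient of variation of 72.6% in CPM over the 10 libraries and a highest value 5.53 times the lowest. The other members ranged from 11.5% (Cnot8) to 22.3% (Btg3). Per kb of exon, Btg2 made up 22.1% and 22.6% of the 5 BTG and TOB transcripts in clones 1 and 2 with DOX. In clone 3 with DOX it made up 9.36%. The untreated MLL-AF9-i139 clones had 8.98%, 10.0% and 6.42%, and the MLL-AF9-ieGFP libraries 7.16% to 10.4%. Per kb of gene body the first 3 shares became 24.3%, 24.0% and 11.2%, and the other libraries ran from 7.72% to 11.9%. In clones 1 and 2 with DOX the ratio of Btg2 to Btg1 was 1.43 and 1.31 per kb of exon, and in the other 8 libraries it was 0.338 to 0.728.

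**Figure D4:**
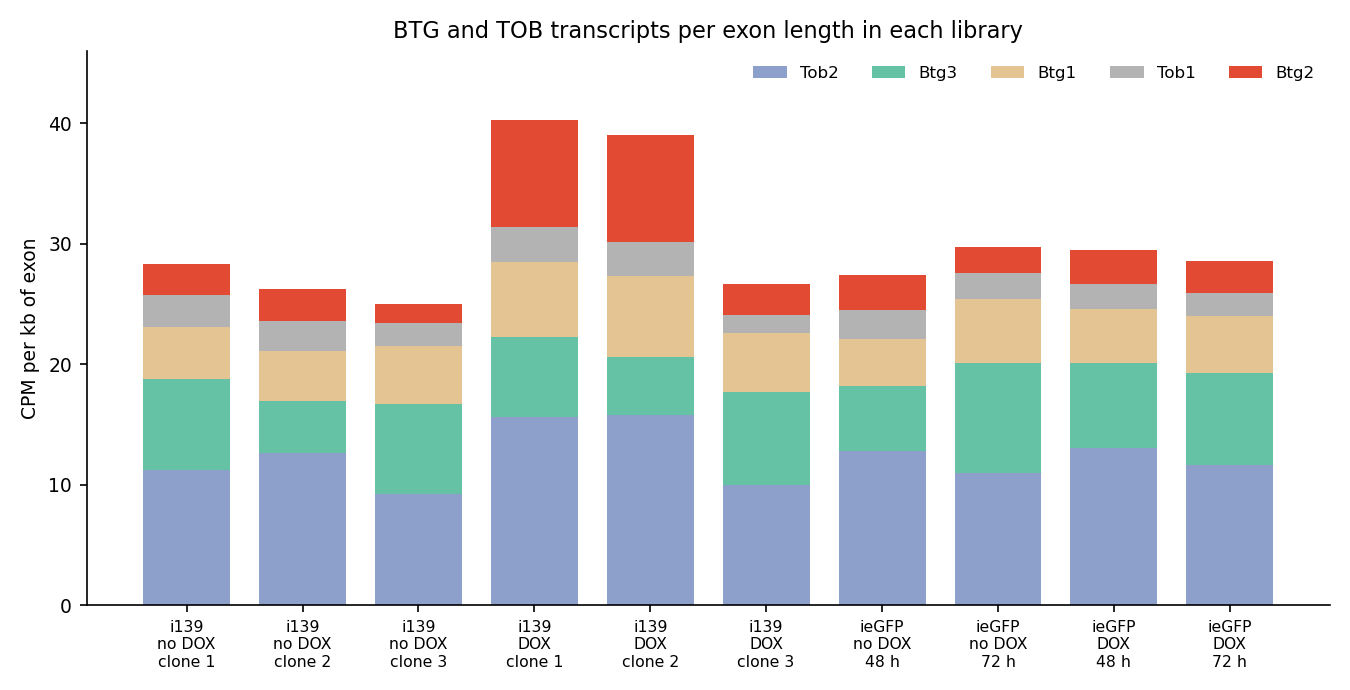
Stacked CPM per kb of exon (linear axis from 0) of the 5 BTG and TOB genes in each library. The stack reached 40.2 and 39.0 in MLL-AF9-i139 clones 1 and 2 with DOX and lay between 25.0 and 29.7 in the other 8 libraries, with Btg2 on top of each bar.

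Across the 10 libraries, which share clones and treatments, the log2 CPM of Btg2 followed Tob2 (Pearson r = 0.90), Cnot8 (0.82) and Btg1 (0.75). Tob1 and Cnot7 ran in opposite directions (r = -0.86). These values describe 10 related libraries and carry no test. Among 8443 protein-coding genes with an average log2 CPM of at least 3, those most like Btg2 were Ostf1, Ctsa and Fes (r = 0.996, 0.995 and 0.994), of which Ctsa encodes the lysosomal cathepsin A and Fes a tyrosine kinase of myeloid cells. Most like Btg1 were Zfp710, Wsb1 and Mcl1 (r = 0.983, 0.965 and 0.963), Mcl1 being a survival factor of the BCL2 family. Those nearest to Btg3 were 3300002I08Rik, Rnf149 and Pex7, from 0.959 to 0.928. For Tob1 they were Nabp1, Zfp871 and Wnk1, from 0.973 to 0.945. For Tob2 they were Ankfy1, P4ha1 and Mpv17, from 0.982 to 0.976.

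The other genes of these pathways were read from the MLL-AF9-i139 comparison in 8 lists that hold 126 genes of the table. Without a block edgeR called 0 of them, with 27 at an unadjusted p under 0.05, and with the clone block it called 17. DESeq2 called 11, and edgeR without clone 3 called 38. Over all 19223 genes tested the median log2 fold change was 0.01, and the 12.4% called with the block split into 1356 higher and 1025 lower. The counts that follow use the clone block and are descriptions of the lists without a set test. As with Btg2, some list genes were named by the study from these libraries, among them Cdkn1a, Trp53inp1 and Dusp1. Their direction is therefore not independent evidence.

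The rest of the CCR4-NOT complex, through which BTG and TOB proteins act, held no called gene. Of its 11 tested subunits, Cnot7 and Cnot8 included, 0 were called with the block, and the median log2 fold change was -0.05. The decapping and decay genes that act after deadenylation gave 0 of 14 with a median of -0.08. Of 16 other poly(A) tail factors, 3 were called, all lower with DOX, with a list median of -0.21. These were the poly(A) binding protein Pabpc4, Noct and the termination factor Gspt1. Pabpc4 had 223 ± 67.4 against 329 ± 22.0 CPM (log2 fold change with the block -0.58, adjusted p = 0.0363, edgeR). Noct and Gspt1 stood at -0.46 and -0.42. Of 19 adaptors that bring CCR4-NOT to its targets, 2 were called and both were higher. They were Cpeb4, which binds cytoplasmic polyadenylation elements, at 81.3 ± 22.8 against 49.0 ± 5.14 CPM (0.71) and the GW182 protein gene Tnrc6b at 616 ± 111 against 412 ± 44.3 CPM (0.58). The list median was -0.04.

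Among 18 tested p53 target genes 4 were called with the block and all 4 were higher with DOX, beside a median of 0.19 over the list. Trp53inp1, a stress protein, had 48.2 ± 27.5 with and 12.9 ± 3.47 CPM without DOX (log2 fold change with the block 1.74, adjusted p = 0.0238, edgeR). The cell cycle inhibitor Cdkn1a had 144 ± 70.7 and 46.2 ± 5.23 CPM (1.52, adjusted p = 0.0271). Sesn2 and Zmat3 followed with 0.78 and 0.57. Of 17 immediate early genes 15 had a log2 fold change above 0, beside 9835 of all 19223 genes tested, and the median was 0.36. Among these 15, Fosb, Egr1, Egr2, Klf2 and Atf3 averaged under 1 CPM both with and without DOX. With the block only 1 gene of this list was called higher and 1 lower. The phosphatase gene Dusp1 rose by 1.68 (12.0 ± 5.64 against 3.60 ± 1.17 CPM, adjusted p = 0.0491, edgeR) and the growth regulator Myc fell by 0.46 on the log2 scale (253 ± 55.1 against 348 ± 27.7 CPM).

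Of the 14 G1 cyclin and pocket protein genes, which govern entry into S phase, 2 rose and 2 fell with the block, and the median was -0.13. Ccnd3 (0.71) and Rb1 (0.52) were higher with DOX. Cdk4 (-0.48) and Cdk6 (-0.49) were lower, Cdk6 from 1639 ± 148 to 1166 ± 214 CPM. Of 9 tested partners of BTG and TOB proteins, the inhibitory SMAD gene Smad7 rose by 0.45 and the arginine methyltransferase gene Prmt5 fell by 0.36 on the log2 scale, with a list median of -0.10.

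**Figure D5:**
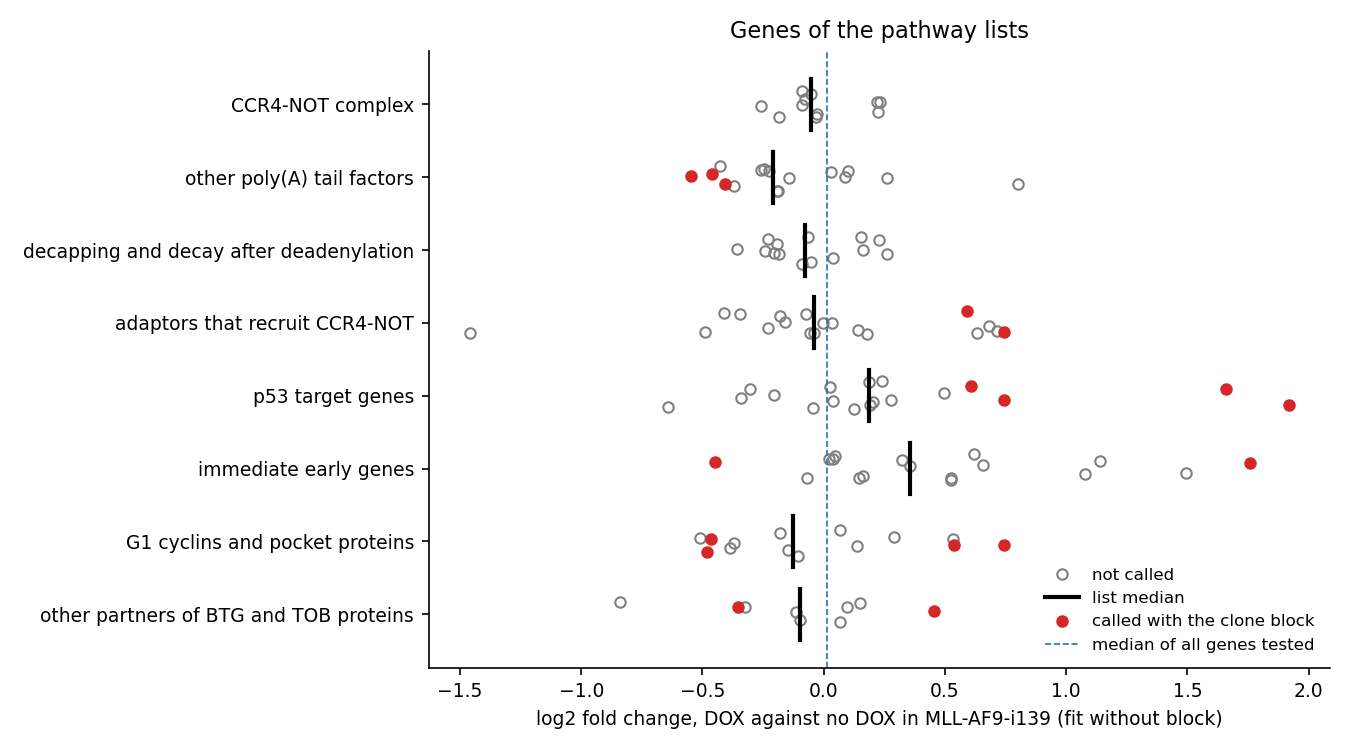
Log2 fold change with DOX in MLL-AF9-i139 (fit without a block) of each tested gene of the 8 lists. Filled points were called with the clone block, black bars are list medians and the dashed line is the median of all genes tested. The CCR4-NOT and decay lists show no filled point, the p53 targets show 4 on the right and the poly(A) tail factors 3 on the left.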

How the data were processed

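RNA was measured in 10 libraries by KAPA RNA HyperPrep with RiboErase and Illumina sequencing. According to the study's methods and the submitters' processing notes, reads were checked with FastQC 0.11.8, mapped to GRCm38 with STAR 2.5.3e and counted per gene with featureCounts 1.6.0 on a GENCODE annotation, and DESeq2 1.22.2 was used by the authors. Strand and overlap settings of the counting are not given in the sources used here. The authors deposited raw counts per gene, without normalization. A second deposited count table held the same values for these libraries (0 differing values), and 14 further columns of per-sample values were not used. Columns were matched to samples through the sample descriptions. Of the 52550 identifiers, 52403 were paired with a symbol.

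Counts were scaled by TMM and tested with edgeR 4.0.16 (R 4.3.3) by quasi-likelihood F tests with Benjamini-Hochberg adjustment over genes whose counts summed to at least 10, called at an adjusted p under 0.05. DOX in MLL-AF9-i139 was fitted on its 6 libraries. DOX in MLL-AF9-ieGFP and the interaction came from 1 fit of 4 groups over 10 libraries. Standard errors are the log2 fold change over the root of F, with 95% intervals from the t distribution. The alternatives were DESeq2 1.42.0, RLE size factors, no filter (at least 1 count), at least 10 counts in at least 3 libraries, the clone or time point as a replicate block, each clone or time point left out, the DOX cultures of 48 h with their untreated partners, and a fit of all 10 libraries.

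The labels give the same clone number to an untreated and a DOX-treated library. The deviations from the group means correlated at 0.378, 0.285 and 0.411 within clones 1, 2 and 3 over 19223 genes. The mean between clones was -0.178. Deviations cancel within each group, so that negative mean largely follows from the values within clones and is no separate evidence. By the labels and the values within clones, the numbers pair the libraries. The blocked value, for Btg2 a log2 fold change of 1.44, stands beside each result it changes. Nothing says that clones came from separate mice, so p-values of the fits on MLL-AF9-i139 alone measure the spread between these clones. Fits with both time points of MLL-AF9-ieGFP also take in the spread between 48 h and 72 h cultures of 1 clone.

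The members, lists and tests were chosen with earlier results of these data known. Named were all members, each list gene called with or without the block (up to 4 a list), the 3 genes most like each BTG or TOB member and the most abundant marker of each list. Any other marker or neighbouring gene was named after its values were seen. Positions, overlaps and 3′ UTRs came from a later GENCODE release of the same build, and miRNA and promoter sequences from RefSeq for GRCm38.p6. Scripts (Python 3.11.15, pandas 2.3.3, numpy 2.4.6, matplotlib 3.10.9) were tested on simulated data.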

Additional observations from a re-analysis of the deposited data

How the results depend on the processing

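The count of members called in MLL-AF9-i139 was 0 and became 1 with DESeq2, 1 with the replicate block, 1 in the fit of all 10 libraries, and 0 to 3 when a clone was left out, with 3 without clone 3. In the test of the difference between constructs it was 0 and became 1 with the DOX cultures of 48 h and their untreated partners and 0 to 1 when a clone or time point was left out, with 1 without clone 3. In MLL-AF9-ieGFP it was 0 in every fit. Fits with 1 time point of MLL-AF9-ieGFP hold 1 library in each of its conditions, which is assumed to vary like the MLL-AF9-i139 clones, and the untreated MLL-AF9-i139 cultures have no stated time. The pathway lists went from 0 called genes to 11 with DESeq2, 6 without a filter on low counts, 17 with the replicate block, 9 in the fit of all 10 libraries, and 0 to 38 with a clone left out, 38 being without clone 3. Each single call on a member is given in the report, and the replicate block changed no other member's call than that of Btg2 in MLL-AF9-i139 (log2 fold change 1.44).

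Signs turned only for members near 0. In MLL-AF9-i139, Btg3 turned to -0.0017 with DESeq2, -0.0016 with RLE size factors, -0.011 in the fit of all 10 libraries, and ran from -0.056 to 0.100 with a clone left out, and Tob1 ran from -0.035 to 0.17. In MLL-AF9-ieGFP, Btg1 turned to 0.0040 with the replicate block. With either time point left out, Btg1 ran from -0.19 to 0.19, Btg2 from -0.014 to 0.31 and Btg3 from -0.26 to 0.39. The difference between constructs turned for Btg3, to 0.082 without clone 1, and ran from -0.40 to 0.27 with a time point left out. The cause of these changes was not tested. Btg2, Btg1, Tob2 and Cnot8 kept a positive and Cnot7 a negative sign in MLL-AF9-i139 under all 9 alternatives.

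Cnot7 and Tob1 rest on at most 241 and 317 counts in a library, which limits the precision of their changes. The depths of 35133308 to 47089725 counts left every member with at least 139 counts in a library, and the comparisons rest on 3 clones and on 1 clone.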
